A study of Mus musculus with 12 samples.

Results

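Lipid droplets are stores of neutral lipid, and the genes examined here encode proteins that coat these stores, fill them and empty them. The list held 10 genes, of 23230 in the deposited table. Plin2 and Plin3 encode coat proteins. Dgat1, Dgat2 and Soat1 encode enzymes that make the stored triacylglycerols and cholesteryl esters. Pnpla2, Abhd5, Pnpla3, Lipe and Nceh1 act on the breakdown side. Members were taken by gene symbol, and each was read in all 12 libraries. Pnpla3 and Nceh1 were put on the list because in this same table both had lower levels without Zar1 and Zar2, so their levels are given below as a description and carry no test. The other 8 genes were listed for their function, though earlier results of these data were known when the list was made.

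Oocytes were collected from WT females and from females null for both Zar1 and Zar2 (Zar1/2-null), all on a C57BL6/ICR hybrid background. Zar1 and Zar2 (listed as Zar1l) encode oocyte zinc-finger proteins that bind RNA, and both null alleles were made with CRISPR/Cas9 as small deletions near the start of the coding sequence, carried by every cell of the female. Growing oocytes came from females of 13.5 days by the labels and of 12 days by the methods. Fully grown germinal vesicle (GV) oocytes were taken at 21 days by the labels, 44 h after an injection of PMSG, which stimulates follicle growth, and MII oocytes 16 h after hCG, which triggers ovulation and meiotic maturation. MII is the collection point in the labels, and the meiotic stage that each oocyte had reached is not given by them. Each of the 6 groups had 2 libraries of 10 oocytes. Nothing in the sources used here says whether the oocytes of the 2 libraries came from separate females, so the p-values measure the spread between these libraries, which may be technical.

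In a lipid droplet, a core of triacylglycerols and cholesteryl esters is enclosed by a phospholipid monolayer and by coat proteins of the perilipin family. Diacylglycerol acyltransferases complete the triacylglycerol molecule and sterol O-acyltransferase esterifies cholesterol, while lipases and esterases release fatty acids and free cholesterol again. Mouse oocytes hold small droplets, and fatty acid oxidation is among the sources of energy for meiotic maturation. Fully grown oocytes have largely stopped transcription, and many of their stored mRNAs are removed between the GV and MII stages.

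Levels are FPKM, the number of sequenced fragments set against transcript length and library size, which the authors multiplied by a factor from the ERCC spike-in, a set of synthetic RNAs added to each lysate. The factor was 1 in WT growing libraries, 0.779 and 0.862 in Zar1/2-null growing, 0.697 and 0.836 in WT GV, 0.533 and 0.583 in Zar1/2-null GV, 0.225 and 0.228 in WT MII and 0.252 and 0.283 in Zar1/2-null MII libraries. Each library was scaled to the WT growing library of the same replicate number, and every level at MII was multiplied by between 0.225 and 0.283. Where a member's call, direction or separation between genotypes changed without this scaling, the unscaled value is given in most cases beside it. Libraries were primed on poly(A), so a removed transcript and a transcript with a shortened tail cannot be told apart. The table gives no read counts, and the counting error behind a value is unknown. Zar1l was at 639 and 644 FPKM in WT growing oocytes and at 17.5 and 13.2 FPKM in Zar1/2-null growing oocytes, and it was lower in the Zar1/2-null libraries at all 3 stages. Zar1 mRNA was still listed at 407 and 460 FPKM in Zar1/2-null growing oocytes against 603 and 725 FPKM in WT, and at MII it was higher in the Zar1/2-null libraries (190 and 194 FPKM) than in WT (83.6 and 72.4 FPKM). The Zar1 row therefore does not by itself check its allele.

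The 12 oocyte markers summed to between 2591 and 20525 FPKM per library. All 6 adipocyte markers stayed below 1 FPKM in every library, with sums between 0 and 0.612 FPKM, so these markers of fat cells were at or near 0. The 8 macrophage and other immune markers summed to between 0.498 and 3.21 FPKM, mostly Cd68. The 14 granulosa and cumulus markers summed to between 5.14 and 33.1 FPKM, of which Cyp19a1 and Nr5a2 made up most. Inha, Kitl and Fshr reached 3.11, 2.58 and 1.24 FPKM in their highest library. The other markers of this list, among them Foxl2, Amh and Amhr2, stayed below 1 FPKM throughout. Of the 8 theca and steroidogenic markers, summing to between 28.0 and 95.7 FPKM, Fdx1, which encodes a mitochondrial ferredoxin of many tissues, gave nearly all. Hsd3b1 was at 1.62 and 0.626 FPKM in WT growing oocytes and at 1.70 and 2.04 FPKM in Zar1/2-null growing oocytes. Cyp17a1, Cyp11a1, Star, Hsd3b6, Lhcgr and Insl3 stayed below 1 FPKM. Limma called 0 of the 2 tested theca markers in growing oocytes, but both were higher in the Zar1/2-null libraries at an unadjusted p under 0.05. Of the 5 granulosa and cumulus markers tested, 3 were lower and 1 higher in Zar1/2-null growing oocytes, where 24.4% of all tested genes were lower and 10.6% higher. Cyp19a1 was at 7.72 and 2.53 FPKM against 19.0 and 16.7 FPKM in WT, and Kitl at 0.549 and 0.374 FPKM against 2.29 and 2.58 FPKM. Nr5a2 went the other way, at 11.5 and 8.18 FPKM against 5.97 and 5.86 FPKM. The part of cumulus RNA in the results below was not tested.

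The 10 genes lie on 7 chromosomes of the mm9 build. Pnpla3 (ENSMUSG00000041653) occupies chr15:83998246-84019942 on the plus strand, and its longest coding transcript had 8 exons and a 3′ UTR of 3427 bases. Nceh1 (ENSMUSG00000027698) occupies chr3:27081887-27183530 on the plus strand, and its longest coding transcript had 5 exons and a 3′ UTR of 3140 bases. That transcript ended before the listed end of the gene, so the Nceh1 window below does not lie at the gene's last annotated bases. Soat1 (ENSMUSG00000026600) occupies chr1:158358239-158404459 on the minus strand, with a 3′ UTR of 2951 bases. Plin3 (ENSMUSG00000024197) is at chr17:56418385-56429934 on the minus strand, with a 3′ UTR of 770 bases. Dgat1 had the shortest 3′ UTR of the list, at 221 bases. In oocytes the end of the 3′ UTR carries the signals that set the poly(A) tail, and proteins of the Zar family bind RNA there. The last 150 bases of each 3′ UTR were searched on the transcript strand for the polyadenylation signal (AATAAA or, as the common variant, ATTAAA), the cytoplasmic polyadenylation element (TTTTAT or, with an extra base, TTTTAAT) and the translational control sequence (ATTATCT or ATTGTCT, also with T first as TTTATCT or TTTGTCT), a motif described for Zar proteins of frog oocytes. The window of 30 bases with the most motifs is shown for Pnpla3 and Nceh1, the members chosen for their lower levels, which differ in these motifs, and for Plin3, the other gene with an element beside its signal. Capitals mark the motifs, and the sequences run from 5′ to 3′ along the mRNA.
Pnpla3, chr15:84019900-84019929, plus strand: AATAAAtgtggggaacaaaaaacaAATAAA
Nceh1, chr3:27143784-27143813, plus strand: AATAAAtacaTTTTATagaatggaaaccca
Plin3, chr17:56418385-56418414, minus strand: ccttAATAAATTTTATatgcatcagaggcc

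The Pnpla3 window held a pair of polyadenylation signals and its last 150 bases no cytoplasmic polyadenylation element, while Nceh1 had 2 such elements, Plin3 had 1 and Soat1 had 1. The element was present in the same window of 23.1% of 16889 genes, the polyadenylation signal in 79.9% and the translational control sequence in 7.63%. None of the 10 members had the translational control sequence in this window, and Plin2 and Pnpla2 had none of the motifs there. A match describes the annotated letters only, and the transcript end used in these oocytes was not measured.

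Pnpla3 and Nceh1 were the 2 most abundant members in WT oocytes at every stage. In WT growing oocytes the order of mean levels was Pnpla3 (176 FPKM ± 17.5, SD, n = 2), Nceh1 (68.5 FPKM ± 0.950), Soat1, Dgat2, Abhd5, Plin3, Plin2, Pnpla2, Dgat1 and Lipe. In that order the library values of Dgat2 overlapped those of Abhd5, those of Abhd5 overlapped Plin3, and those of Plin2 overlapped Pnpla2, so these neighbours did not differ beyond their spread. Among the 11502 genes that reached 1 FPKM in at least 1 library, 93.6% had a lower mean than Pnpla3 in WT growing oocytes and 85.4% a lower mean than Nceh1. In Zar1/2-null growing oocytes Nceh1 came first, and Pnpla3 came ninth of the 10 genes at 0.387 FPKM ± 0.0410 (SD, n = 2), where its libraries overlapped those of Lipe. In WT MII oocytes the order began with Pnpla3, Nceh1, Plin3 and Soat1. The plot of all 10 genes by library shows these levels.

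**Figure D1:**
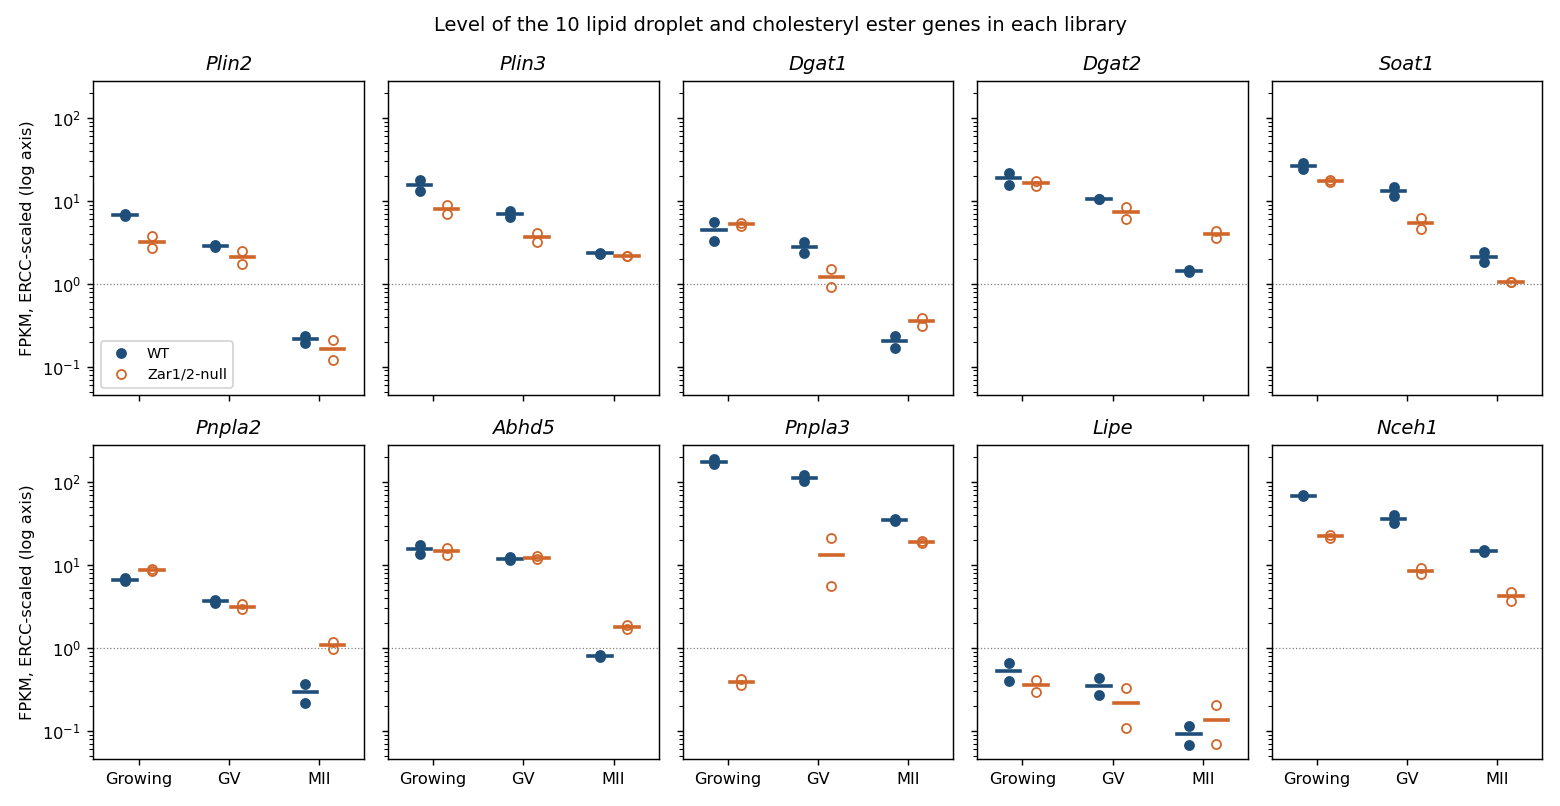
Each panel plots 1 gene, with the stage on the x axis and ERCC-scaled FPKM on a log y axis. Filled points are WT libraries, open points Zar1/2-null libraries, short lines the mean of 2 libraries, and the dotted line marks 1 FPKM. Pnpla3 lies at 0.358 and 0.416 FPKM in Zar1/2-null growing oocytes and at 163.6 and 188.3 FPKM in WT. Dgat2, Pnpla2, Abhd5 and Dgat1 have Zar1/2-null points above the WT points at MII, those of Dgat1 all below 1 FPKM.

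In growing oocytes the coat genes Plin2 and Plin3 were below WT when Zar1/2 were absent. Plin2, which encodes the perilipin that stays on droplets in most tissues, was at 6.61 and 6.91 FPKM in WT growing oocytes and at 3.74 and 2.70 FPKM in Zar1/2-null growing oocytes. The libraries did not overlap, and the log2 fold change of FPKM + 1 was -0.89 ± 0.16 (SE; limma adjusted p = 0.00142). At GV it was at 2.93 and 2.75 FPKM in WT and at 1.74 and 2.52 FPKM in Zar1/2-null oocytes, a difference of -0.31 that missed the threshold (limma adjusted p = 0.132) and was 0.011 without ERCC scaling. Plin2 was below 1 FPKM in all 4 MII libraries. Plin3, which encodes a perilipin that moves from the cytosol to newly made droplets, was at 13.1 and 17.7 FPKM in WT growing oocytes and at 8.99 and 6.94 FPKM in Zar1/2-null growing oocytes. All Zar1/2-null values were below all WT values there (-0.87 ± 0.18, limma adjusted p = 0.00358). The same held at GV, with 7.58 and 6.35 FPKM in WT against 3.15 and 4.12 FPKM (-0.78 ± 0.18, limma adjusted p = 0.00516). At MII Plin3 was at 2.38 and 2.32 FPKM in WT and at 2.15 FPKM in both Zar1/2-null libraries, a difference of -0.09 (limma adjusted p = 0.789). Without ERCC scaling the growing-stage differences of both genes kept their call (Plin2 -0.67, limma adjusted p = 0.0225, and Plin3 -0.61, limma adjusted p = 0.0236). At GV the Plin3 difference fell to -0.43 and missed the threshold without the scaling (limma adjusted p = 0.104), and it also missed it without WT GV replicate 1 (limma adjusted p = 0.0548).

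Dgat1 and Dgat2 encode unrelated enzymes that catalyse the same last step of triacylglycerol synthesis. Dgat1 was at 3.33 and 5.60 FPKM in WT growing oocytes and at 5.42 and 5.02 FPKM in Zar1/2-null growing oocytes, values that overlap. Without ERCC scaling the Zar1/2-null growing values were 6.29 and 6.45 FPKM, above both WT values, and the difference was not called (0.46, limma adjusted p = 0.195). At GV it was at 2.38 and 3.17 FPKM in WT and at 0.926 and 1.50 FPKM in Zar1/2-null oocytes, so that Dgat1 was lower in Zar1/2-null GV oocytes (-0.77 ± 0.20, limma adjusted p = 0.0102). That call was lost without ERCC scaling (-0.56, limma adjusted p = 0.14), without WT GV replicate 2 (limma adjusted p = 0.0733) and without Zar1/2-null GV replicate 1 (limma adjusted p = 0.084). All 4 MII libraries were below 1 FPKM for Dgat1, at 0.169 and 0.235 FPKM in WT and at 0.312 and 0.392 FPKM in Zar1/2-null oocytes. These values did not overlap, but the difference was not called (0.17, limma adjusted p = 0.611). Dgat2 was at 15.7 and 21.6 FPKM in WT growing oocytes and at 15.1 and 17.5 FPKM in Zar1/2-null growing oocytes, again overlapping. At GV it was at 10.5 and 10.6 FPKM in WT and at 6.09 and 8.57 FPKM in Zar1/2-null oocytes, a difference of -0.49 that missed the threshold of 0.05 (limma adjusted p = 0.0547). It passed without Zar1/2-null GV replicate 2 (limma adjusted p = 0.0223) and without either WT growing library (0.0466 and 0.0464). Without ERCC scaling the GV difference was -0.08 (limma adjusted p = 0.829) and the libraries overlapped, at 12.6 and 15.1 FPKM in WT and 11.4 and 14.7 FPKM in Zar1/2-null oocytes, so the lower GV level rested on the scaling. At MII Dgat2 was higher in the Zar1/2-null libraries under both scalings. Dgat2 was at 1.38 and 1.48 FPKM in WT MII oocytes and at 3.55 and 4.32 FPKM in Zar1/2-null MII oocytes, 2.75-fold higher on means (1.02 ± 0.19 on the log2 scale, limma adjusted p = 0.00137). The Dgat2 call at MII held in every alternative run, with limma adjusted p between 0.000223 and 0.0173.

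On the lipolysis side, Pnpla2 and Abhd5 were above WT in Zar1/2-null MII oocytes. Pnpla2 encodes adipose triglyceride lipase, which takes the first fatty acid from a triacylglycerol, and Abhd5 encodes its co-activator, also named CGI-58. Pnpla2 was at 0.216 and 0.371 FPKM in WT MII oocytes and at 0.973 and 1.18 FPKM in Zar1/2-null MII oocytes. The Zar1/2-null mean was 367% of the WT mean, and the log2 fold change of FPKM + 1, which understates the change of such low values, was 0.68 ± 0.13 (limma adjusted p = 0.00186). Earlier it was at 6.33 and 6.97 FPKM in WT and at 8.38 and 9.01 FPKM in Zar1/2-null growing oocytes, with no overlap (0.34 ± 0.13, limma adjusted p = 0.0631). That difference passed the threshold without ERCC scaling (0.60, limma adjusted p = 0.0465). At GV Pnpla2 was at 3.52 and 3.76 FPKM in WT and at 2.93 and 3.36 FPKM in Zar1/2-null oocytes (-0.16, limma adjusted p = 0.323), and the sign turned without ERCC scaling (0.20, limma adjusted p = 0.538). Abhd5 overlapped between genotypes in growing and in GV oocytes, with 12.5 and 11.4 FPKM in WT GV and 11.7 and 12.8 FPKM in Zar1/2-null GV oocytes (0.04, limma adjusted p = 0.85). Without ERCC scaling the GV values did not overlap, at 14.9 and 16.3 FPKM in WT and 22.01 and 21.99 FPKM in Zar1/2-null oocytes (0.47, limma adjusted p = 0.051). It was at 0.781 and 0.830 FPKM in WT MII oocytes and at 1.89 and 1.69 FPKM in Zar1/2-null MII oocytes, 222% of the WT mean (0.63 ± 0.16, limma adjusted p = 0.00898). The Abhd5 call at MII was lost when WT MII replicate 1 (limma adjusted p = 0.0526) or Zar1/2-null MII replicate 1 (limma adjusted p = 0.0691) was left out. Lipe, which encodes hormone-sensitive lipase of fat cells and steroid-making cells, was listed between 0.0680 and 0.657 FPKM in the 12 libraries. It reached 1 FPKM in none of them and was not tested.

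Pnpla3 encodes a patatin-like phospholipase of the same family as Pnpla2, which sits on lipid droplets and is best known from fatty liver. Its values chose it for the list. In WT growing oocytes it was at 163.6 and 188.3 FPKM, and in Zar1/2-null growing oocytes at 0.358 and 0.416 FPKM, a mean of 0.220% of WT. In GV oocytes it was at 121.1 and 103.9 FPKM in WT and at 5.66 and 21.1 FPKM in Zar1/2-null oocytes, a mean of 11.9% of WT. In MII oocytes it was at 35.9 and 34.5 FPKM in WT and at 18.6 and 19.5 FPKM in Zar1/2-null oocytes, a mean of 54.1% of WT. The Zar1/2-null libraries were below the WT libraries at every stage, but the gap narrowed from growing to MII oocytes. In WT the libraries of each later stage were below those of the stage before, while in Zar1/2-null oocytes every GV and MII library was above both growing libraries. The 2 Zar1/2-null GV libraries stood apart from each other, and the WT mean was 19.9 times the first of them and 5.34 times the second. Without ERCC scaling WT levels were 163.6 and 188.3 FPKM in growing, 145 and 149 FPKM in GV and 160 and 151 FPKM in MII oocytes. The order of the WT stages thus rested on the scaling. The unscaled Zar1/2-null values of 0.415 and 0.534, 10.6 and 36.1, and 65.6 and 77.3 FPKM differed by stage with no overlap. With the scaling the Zar1/2-null GV and MII libraries overlapped, so their separation was seen only without it.

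Of the cholesteryl ester genes, Soat1, listed for its function, was lower in Zar1/2-null oocytes at all 3 stages. It encodes sterol O-acyltransferase, which esterifies cholesterol in the endoplasmic reticulum. It was at 28.6 and 24.3 FPKM in WT growing oocytes and at 18.0 and 16.8 FPKM in Zar1/2-null growing oocytes, with no overlap (-0.57 ± 0.18, limma adjusted p = 0.0278). In GV oocytes it was at 14.6 and 11.4 FPKM in WT and at 4.58 and 6.30 FPKM in Zar1/2-null oocytes, 41.9% of the WT mean (-1.12 ± 0.18, limma adjusted p = 0.00065). At MII it was at 1.81 and 2.42 FPKM in WT and at 1.06 and 1.07 FPKM in Zar1/2-null oocytes (-0.59 ± 0.18, limma adjusted p = 0.0253). Soat1 was the only tested member called lower at all 3 stages, and its growing and MII calls were lost when single libraries were left out. The GV call held in every alternative run (limma adjusted p from 0.000432 to 0.0173). The growing-stage call was lost without ERCC scaling (-0.30, limma adjusted p = 0.228) and whenever 1 of the 4 growing libraries was left out (limma adjusted p from 0.0506 to 0.172). At MII the call was lost without WT MII replicate 2 (limma adjusted p = 0.177) or either Zar1/2-null MII library (0.105 and 0.0968), and it was larger without ERCC scaling (-1.05, limma adjusted p = 0.000423).

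Nceh1 encodes neutral cholesterol ester hydrolase, which splits cholesteryl esters and so works against sterol O-acyltransferase. It was chosen on its values, as Pnpla3 was. It was at 67.8 and 69.2 FPKM in WT growing oocytes and at 21.4 and 23.2 FPKM in Zar1/2-null growing oocytes, 32.6% of the WT mean. In GV oocytes it was at 40.3 and 31.8 FPKM in WT and at 7.69 and 9.18 FPKM in Zar1/2-null oocytes, 23.4% of the WT mean. In MII oocytes it was at 14.5 and 15.2 FPKM in WT and at 4.70 and 3.73 FPKM in Zar1/2-null oocytes, 28.4% of the WT mean. The share of WT lay between 23.4% and 32.6% at the 3 stages with the scaling. Without ERCC scaling the WT mean was 2.51 times the Zar1/2-null mean in growing, 3.11 times in GV and 4.18 times in MII oocytes, so the share then fell from stage to stage. Also without ERCC scaling Nceh1 was higher in WT MII than in WT GV oocytes (64.6 and 66.8 against 48.2 and 45.6 FPKM), the reverse of the scaled order.

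Across the tested members, all calls in growing and GV oocytes were toward lower levels in the Zar1/2-null libraries, and 3 of the 4 calls in MII oocytes toward higher ones. Of the 8 genes listed for their function, 7 reached 1 FPKM in at least 1 library and were tested. In growing oocytes 3 of 7 were lower (Plin2, Plin3 and Soat1) and 0 higher, while 24.4% of all 11502 tested genes were lower and 10.6% higher. At an unadjusted p under 0.05 limma called 1 member higher there, Pnpla2. In GV oocytes 3 of 7 were lower (Plin3, Dgat1 and Soat1) and 0 higher, where 40.6% of all tested genes were lower and 2.83% higher, so the members' share was close to that of all genes. No member was higher at GV at an unadjusted p under 0.05 by limma either. In MII oocytes 3 of 7 were higher (Dgat2, Pnpla2 and Abhd5) and 1 lower (Soat1), where 21.5% of all tested genes were higher and 10.3% lower. At the same stage 10 of the 12 oocyte markers were higher, with a median of 1.35 on the log2 scale. Whether the members' values share in this difference of the markers was not tested. The median log2 difference of the 7 members was -0.17 in growing, -0.49 in GV and 0.17 in MII oocytes, beside -0.16, -0.38 and 0.06 over all tested genes. A 3-fold rule was also applied to group means raised to at least 1 FPKM. The study likewise used 3-fold, but it raised single values to 1 FPKM, and its counts differ from those given here. Only Pnpla3 in growing and GV oocytes and Nceh1 at all 3 stages were past 3-fold, and these 2 genes were chosen for that difference. In growing oocytes Nceh1 was just past it at 3.07-fold, and it was at 2.51-fold without ERCC scaling and at 2.96-fold with Zar1/2-null replicate 2 alone. That rule called 3.54%, 4.20% and 1.32% of all genes lower in growing, GV and MII oocytes.

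Without ERCC scaling the 2 coat genes remained lower in growing oocytes and Pnpla2 became higher, with 11.7% of 12155 genes lower and 14.4% higher. In GV oocytes Soat1 alone remained lower (-0.75, limma adjusted p = 0.011), with 13.1% of all genes lower and 7.26% higher. In MII oocytes the 3 higher genes and Soat1 kept their calls, with 23.9% of all genes higher and 22.7% lower. The plot of differences by stage sets both scalings side by side.

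**Figure D2:**
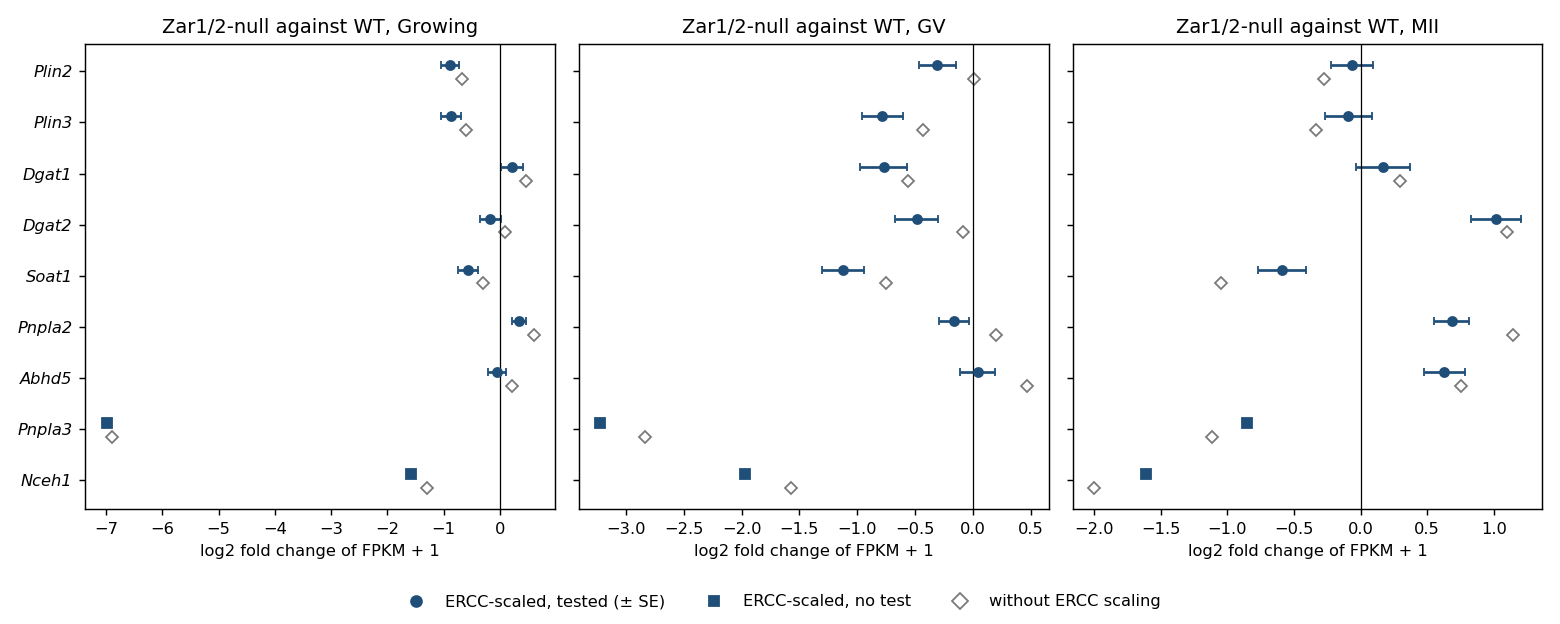
The x axis of each panel is the log2 fold change of FPKM + 1 between Zar1/2-null and WT oocytes at 1 stage, with a range of its own, and the rows are the 9 members that reached 1 FPKM. Circles with bars are the limma estimate ± SE over 12 libraries with ERCC scaling, squares the 2 untested members, and open diamonds the estimate without ERCC scaling. At MII the estimates of Dgat2, Pnpla2, Abhd5 and Dgat1 lie above 0 under both scalings. Those of Soat1, Pnpla3, Nceh1, Plin2 and Plin3 lie below 0 under both, and Dgat1, Plin2 and Plin3 were not called.

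Along WT oocyte growth and maturation most tested members were lower at each later stage, and limma called none higher, also at an unadjusted p under 0.05. From growing to GV oocytes 5 of 7 fell (Plin2, Plin3, Dgat2, Soat1 and Pnpla2), with log2 differences from -0.72 for Pnpla2 to -1.03 for Plin3, where 28.7% of all genes were lower and 2.77% higher. Abhd5 (-0.34, limma adjusted p = 0.116) and Dgat1 (-0.51, limma adjusted p = 0.0736) did not pass. Without ERCC scaling only Plin2 and Plin3 passed, and 6.51% of all genes passed in either direction. From GV to MII all 7 fell in WT, where 93.4% of all tested genes were lower and 0.104% higher. The median of the members was -1.84 and that of all genes -1.28. Abhd5 fell from 12.5 and 11.4 FPKM at GV to 0.781 and 0.830 FPKM at MII (-2.84 ± 0.16, limma adjusted p = 1.21e-08). On means, MII was 6.75% of GV for Abhd5, 7.28% for Dgat1, 7.56% for Plin2, 8.07% for Pnpla2, 13.6% for Dgat2 and 16.3% for Soat1. Plin3 was at 33.8% of its GV mean, the highest share of the 7 (-1.24 ± 0.18, limma adjusted p = 4.39e-05), and without ERCC scaling it was 0.18 in the other direction (limma adjusted p = 0.384). The other 6 tested members remained lower at MII without ERCC scaling, where 46.1% of all genes were lower and 19.2% higher.

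The genotype difference changed between stages for 3 of the 7 tested members during maturation and for 1 during growth. The interaction asks whether the GV-to-MII change differed between Zar1/2-null and WT oocytes. It was 1.50 ± 0.26 for Dgat2 (limma adjusted p = 0.00138), 0.85 ± 0.19 for Pnpla2 (limma adjusted p = 0.00526) and 0.94 ± 0.28 for Dgat1 (limma adjusted p = 0.0257), on the log2 scale. In each case the fall from GV to MII was smaller in Zar1/2-null than in WT oocytes. The part of the meiotic arrest reported for ovulated Zar1/2-null oocytes in this difference was not tested. The Dgat2 mean at MII was 13.6% of that at GV in WT oocytes and 53.7% in Zar1/2-null oocytes, and for Pnpla2 the shares were 8.07% and 34.3%. An interaction was called for 34.6% of all tested genes, nearly always in this direction (33.9%), and the median over all genes was 0.48. Plin3 (0.69, limma adjusted p = 0.054) and Abhd5 (0.59, limma adjusted p = 0.0579) missed the threshold, and without ERCC scaling they were at 0.099 (limma adjusted p = 0.83) and 0.28 (limma adjusted p = 0.41). Soat1 (0.53, limma adjusted p = 0.118) and Plin2 (0.25, limma adjusted p = 0.402) did not pass, and both turned negative without the scaling (-0.30 and -0.28). Without ERCC scaling Dgat2 and Pnpla2 kept the call, with 14.3% of all genes called in this direction, and Dgat1 lost it (limma adjusted p = 0.113). For Dgat1 the growing-to-GV change also differed between genotypes (-0.99 ± 0.28, limma adjusted p = 0.0417), where 13.9% of all genes were called. The Dgat1 growth call was lost in 10 of the 12 fits with a library left out, and the Dgat1 maturation call in 6 of the 12.

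Ratios between 2 members of the same library do not depend on the spike-in. The ratio of Nceh1 to Soat1, the hydrolase to the esterifying enzyme, was 2.38 and 2.84 in WT growing oocytes and 1.19 and 1.38 in Zar1/2-null growing oocytes. It was 2.76 and 2.79 against 1.68 and 1.46 at GV, and 8.02 and 6.27 against 4.45 and 3.50 at MII, lower in the Zar1/2-null libraries at each stage, with Nceh1 itself chosen for being low. In both genotypes this ratio was highest at MII. The ratio of Soat1 to Dgat2, both listed for their function, was 1.39 and 1.08 in WT GV oocytes and 0.752 and 0.736 in Zar1/2-null GV oocytes. At MII it was 1.31 and 1.64 in WT and 0.297 and 0.247 in Zar1/2-null oocytes, and the growing values of the genotypes overlapped. The ratio of Pnpla3 to Pnpla2, the 2 patatin-like lipases, was 25.8 and 27.0 in WT growing oocytes and 0.0427 and 0.0462 in Zar1/2-null growing oocytes. By MII it had reached 19.1 and 16.5 in Zar1/2-null oocytes, still below 166 and 93.0 in WT, where Pnpla2 was at only 0.216 and 0.371 FPKM. The ratio of Plin3 to Plin2 was between 1.64 and 2.58 in all growing and GV libraries and between 10.2 and 17.8 in all MII libraries. It was thus higher at MII in both genotypes. The MII ratios divide by Plin2 values between 0.121 and 0.234 FPKM, whose counting error is unknown, so their size is uncertain.

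**Figure D3:**
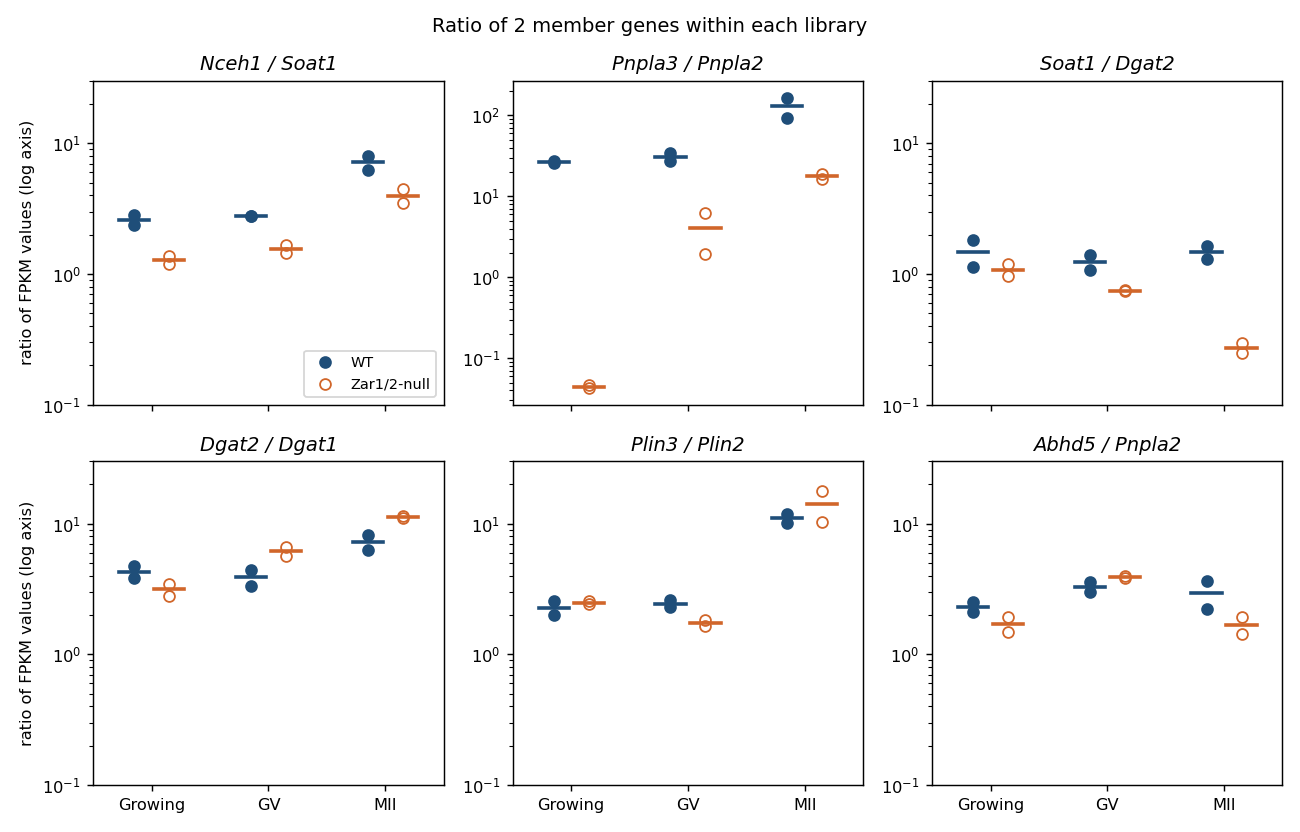
Each panel plots the ratio of the FPKM values of 2 genes within a library on a log y axis, by stage, with filled points for WT, open points for Zar1/2-null libraries and lines for the mean of 2 libraries. The Pnpla3 to Pnpla2 panel has a wider axis than the other 5. At MII the ratio of Soat1 to Dgat2 lies at 1.31 and 1.64 in WT and at 0.297 and 0.247 in Zar1/2-null oocytes.

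The wider pathways were read from 6 lists of 127 genes that hold none of the 10 members. Over all 11502 tested genes, 24.4% were lower and 10.6% higher in growing oocytes. The shares were 40.6% lower and 2.83% higher at GV, and 10.3% lower and 21.5% higher at MII. Counts near these shares are not particular to a list. Among genes of lipid droplet coat and assembly, 11 of 20 were tested. In growing oocytes 3 were lower and 1 higher, in GV oocytes 5 and 1, and at MII 2 and 3. The share called lower was 27.3% in growing and 45.5% in GV oocytes, close to the shares over all genes. Hilpda, which encodes an inhibitor of adipose triglyceride lipase, was at 14.4 and 11.6 FPKM in WT GV oocytes and at 2.26 and 1.90 FPKM in Zar1/2-null GV oocytes (-2.18 ± 0.25, limma adjusted p = 9.3e-05). Hsd17b13, a droplet-bound enzyme, was higher in Zar1/2-null oocytes at all 3 stages, and at MII it was at 14.7 and 12.8 FPKM against 2.31 and 2.96 FPKM in WT (2.02 ± 0.16). Bscl2, which encodes seipin, the protein at the site of droplet formation, was higher at MII, at 122 and 114 FPKM against 35.7 and 43.1 FPKM in WT (1.57 ± 0.17). Mest (-1.12) was lower at GV, and Hilpda (-0.79) and Spast (-0.60) in growing oocytes.

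Of 14 genes of triacylglycerol synthesis, 9 were tested. In growing oocytes 1 was lower and 3 higher, at GV 4 were lower and 0 higher, and at MII 0 were lower and 3 higher. The lower calls were 11.1% of this list in growing and 44.4% in GV oocytes, beside 24.4% and 40.6% of all tested genes. Agpat9, an older symbol of glycerol-3-phosphate acyltransferase 3, which catalyses the first step, was at 26.2 and 35.6 FPKM in WT growing oocytes and at 7.37 and 4.59 FPKM in Zar1/2-null growing oocytes (-2.21 ± 0.41, limma adjusted p = 0.00202). Of 15 other genes of lipolysis, 10 were tested. In growing oocytes 5 were lower and 0 higher, at GV 3 and 1, and at MII 1 and 2. For lipolysis the share called lower was 50% in growing oocytes, above that of all genes, and 30% at GV, below it. Aadac (-1.15) and Abhd6 (-0.75), a monoacylglycerol lipase, were lower in growing oocytes and Pnpla8 (-0.88), a phospholipase of the patatin-like family, at GV.

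Of 18 genes of sterol esterification and sterol transport, 12 were tested, with 3 lower and 0 higher in growing oocytes, 3 and 0 at GV, and 2 and 1 at MII. The lower calls were 25% of this list at both earlier stages, beside 24.4% of all tested genes in growing and 40.6% in GV oocytes. Npc1 and Npc2 encode the proteins that pass cholesterol out of lysosomes, and they were called in opposite directions, at different stages. Npc1 was lower in growing (-0.60) and GV oocytes (-0.48), while Npc2 was at 15.1 and 12.8 FPKM in Zar1/2-null MII oocytes against 3.06 and 2.85 FPKM in WT (1.91 ± 0.18). Osbpl8, an oxysterol-binding protein gene, was lower at GV (-0.80) and at MII (-1.34), and Osbpl9 (-0.61) in growing oocytes. Of 27 genes of cholesterol synthesis and its SREBP regulators, 24 were tested, with 8 lower and 5 higher in growing oocytes, 8 and 2 at GV, and 3 and 5 at MII. Here 33.3% were lower in growing and also in GV oocytes. Idi1, an isomerase of this pathway, was lower at all 3 stages (-1.17, -1.22 and -1.73). Fdps, the next enzyme, was higher at all 3 stages, with 136 and 113 FPKM in Zar1/2-null growing oocytes against 59.9 and 58.1 FPKM in WT (1.05 ± 0.22). Tm7sf2 (0.68) was higher in growing oocytes and Scap (0.91), the SREBP escort, at MII.

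Of 33 genes of fatty acid uptake, activation and oxidation, 24 were tested, with 6 lower and 3 higher in growing oocytes, 9 and 1 at GV, and 5 and 4 at MII. The lower share was 25% in growing and 37.5% in GV oocytes, close to the 24.4% and 40.6% of all tested genes. Acadm, the medium-chain acyl-CoA dehydrogenase of mitochondrial beta-oxidation, was lower at all 3 stages. It was at 24.2 and 24.5 FPKM in WT growing oocytes and at 7.62 and 8.60 FPKM in Zar1/2-null growing oocytes (-1.48 ± 0.21, limma adjusted p = 0.000381). Echs1, of the same pathway, was lower in growing oocytes, at 20.4 and 17.3 FPKM against 36.5 and 40.9 FPKM in WT. Also lower were the fatty acid transporter gene Cd36 (-1.11) at GV, and Acsl3 (-1.09), an acyl-CoA synthetase of droplets, at MII. Dbi (0.91), an acyl-CoA-binding protein gene, was higher at MII. Most of these named differences kept their call without ERCC scaling. Those of Hilpda, Spast, Abhd6, Osbpl9 and Npc1 in growing oocytes, and of Osbpl8 and Npc1 at GV, did not. Where limma called 0 genes of a list in 1 direction, an unadjusted p under 0.05 gave 2 higher for lipolysis and 1 for sterol transport in growing oocytes, 1 for sterol transport and 0 for triacylglycerol synthesis at GV, and 1 lower for triacylglycerol synthesis at MII. In every list the lower calls outnumbered the higher ones at GV, as they did over all tested genes, and the plot of the lists shows their shares beside those of all genes.

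**Figure D4:**
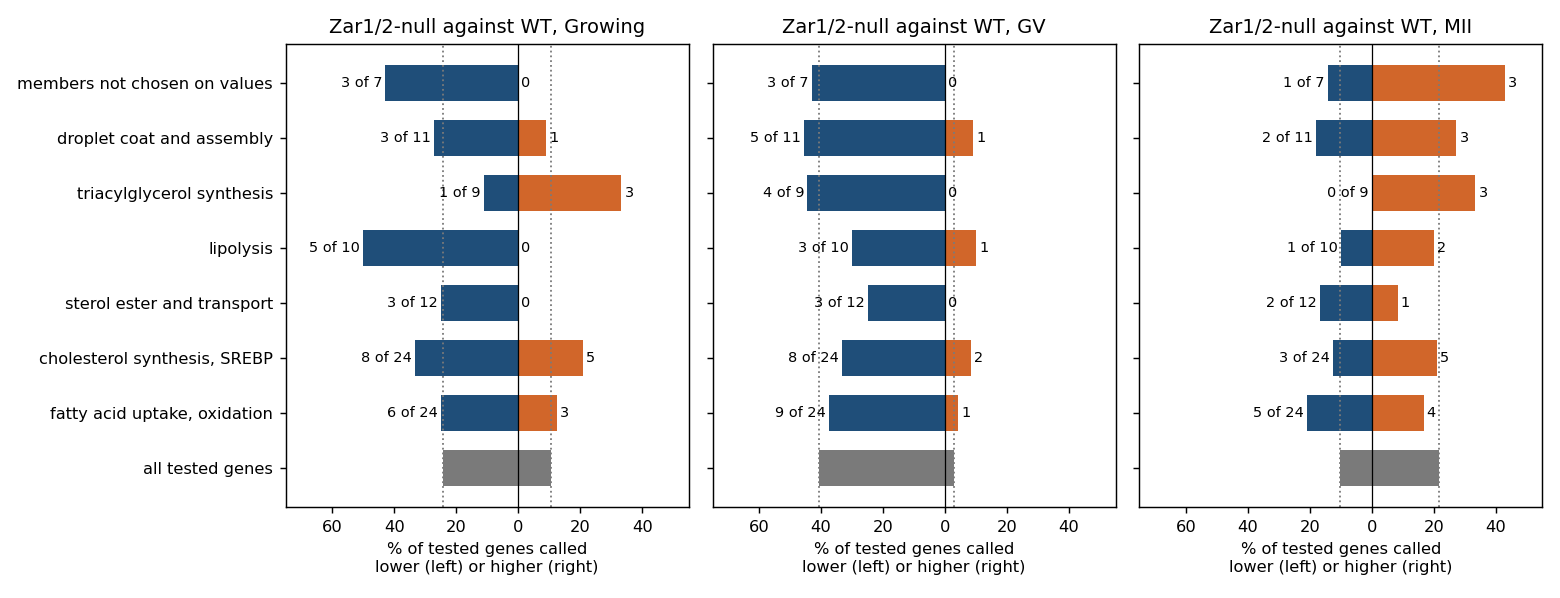
Bars give the percentage of tested genes of each list that limma called lower (left, blue) or higher (right, orange) without Zar1/2 at each stage, with the number of genes beside each bar. Grey bars and dotted lines mark the shares over all 11502 tested genes. At GV these are 40.6% lower and 2.83% higher, and at MII 10.3% lower and 21.5% higher.

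The genes whose log2(FPKM + 1) followed Pnpla3 most closely over the 12 libraries, among the 5890 genes whose mean reached 5 FPKM, were Olfr1300-ps1 (Pearson r = 0.966), Epsti1 (0.963), Tmem171 (0.958), Cmtm8 (0.957) and Gpm6a (0.927). The points share the spike-in scaling and the 6 groups, so these values only describe likeness of pattern. Epsti1 was at 53.1 and 54.7 FPKM in WT growing oocytes, at 5.68 and 2.09 FPKM in Zar1/2-null growing oocytes, at 10.3 and 13.0 FPKM in Zar1/2-null GV oocytes and at 20.8 and 14.1 FPKM in Zar1/2-null MII oocytes. Like Pnpla3, it was lowest in Zar1/2-null growing oocytes. Without ERCC scaling Cmtm8 and Epsti1 ranked first and second, and Olfr1300-ps1 ranked 36. Nceh1 was followed most closely by Atf2 (0.995), Rnf20 (0.993), Rad1 (0.991), Atp6v1b2 (0.990) and Rbm25 (0.989). Of these, Atp6v1b2, a subunit gene of the vacuolar proton pump, was at 109 and 116 FPKM in WT growing oocytes and at 37.0 and 30.5 FPKM in Zar1/2-null growing oocytes. Without ERCC scaling Atp6v1b2 ranked first and Rad1 ranked 4, whereas Atf2, Rnf20 and Rbm25 ranked 332, 584 and 498.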

How the data were processed

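The authors made Smart-seq2 libraries from 10 oocytes each, cut the reads to 50 bp, aligned them to the mm9 genome (TopHat2 2.1.1), dropped reads with several positions and estimated transcript levels with Cufflinks 2.2.1. They deposited FPKM values multiplied by an ERCC factor, as 1 table of 23230 genes and 12 libraries. Each factor was found as the number that turns a library's values back into 6-digit decimals. No read counts were used, so depth per gene is unknown.

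Members and gene lists were chosen with earlier results of these data known. A gene entered the tests if any library listed it at 1 FPKM or more (11502 genes). The log2(FPKM + 1) values were modelled in limma (3.58.1, R 4.3.3) by group means of the 12 libraries, the prior variance followed the mean level, and the Benjamini-Hochberg method was applied to all 11502 genes, with a threshold of 0.05. An exact permutation test of 2 against 2 libraries cannot go below 0.333. The scripts were tested on simulated data. Replicate numbers did not establish pairs, since the labels name no shared animal or batch, so no block was used.

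Named list genes are, per list and stage, up to 2 higher and 2 lower by size of the difference, taken from called genes whose genotypes did not overlap and whose higher mean reached 10 FPKM. A gene named by this rule is not reported here. Positions and 3′ UTRs came from the mm9 GENCODE annotation. Alternatives were no ERCC scaling, median scaling, a pseudocount of 0.1 FPKM, no filter, a filter at a mean of 5 FPKM, a replicate block, no trend, the compared libraries alone, a floor of 0.1 FPKM for the 3-fold rule and each library left out. A crossed block was added after seeing the data.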

Additional observations from a re-analysis of the deposited data

Results flagged for a closer look

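The genotype difference of 3 of the 7 tested members changed between GV and MII by the interaction test in limma. That test called 34.6% of all tested genes, 33.9% in the same direction, so the members' count was near the general share. The interaction on the log2(FPKM + 1) scale was 1.50 for Dgat2, 0.94 for Dgat1 and 0.85 for Pnpla2. For Dgat2 the Zar1/2-null libraries (6.09 and 8.57 FPKM) lay below WT (10.5 and 10.6 FPKM) at GV and above WT at MII (3.55 and 4.32 against 1.38 and 1.48 FPKM). Without ERCC scaling the genotypes overlapped at GV (-0.08), and the interaction was 1.18 (limma adjusted p = 0.0156). Between growing and GV oocytes the interaction was -0.99 for Dgat1, where 13.9% of all tested genes were called. With ERCC scaling its genotypes overlapped in growing oocytes, and its Zar1/2-null values were lower at GV. Without ERCC scaling both Dgat1 interactions missed the threshold (limma adjusted p = 0.113 for maturation and 0.115 for growth), while Pnpla2 kept its call (limma adjusted p = 0.0357). Over all tested genes the maturation interaction had a median of 0.48 and the growth interaction one of -0.23.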

How the results depend on the processing

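The counts of called members depended mostly on the scaling, and the cause was not tested. Without ERCC scaling 1 member was higher in Zar1/2-null growing oocytes (Pnpla2, 0 with the scaling), 1 was lower at GV (3), 2 fell from growing to GV in WT (5) and 0 had a growth interaction (1). With each library scaled to its median, 1 member was higher in growing oocytes, 1 was higher (Abhd5, 0.54, limma adjusted p = 0.0198) and 1 lower at GV, 3 fell from growing to GV in WT, 1 rose from GV to MII (Plin3) and 0 had a growth interaction. Over all genes the median of the WT GV-to-MII change moved from -1.28 to -0.39 without ERCC scaling and to -0.16 with median scaling. With no filter 0 members were lower at MII (Soat1 missed the threshold) and 0 had a growth interaction, which was also 0 with a pseudocount of 0.1 FPKM and with the compared libraries alone. A filter at a mean of 5 FPKM left fewer members to test, with 3 lower from growing to GV in WT, 4 lower from GV to MII in WT (7), 1 with a maturation interaction (3) and 0 with a growth interaction. The 3-fold rule gave 1 member higher at MII (Pnpla2) with a floor of 0.1 FPKM and 1 without ERCC scaling, beside 0. Shares over all genes are not given here for the filter, pseudocount and floor alternatives, so those counts describe the members only.

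Signs turned as follows, with the log2 value without ERCC scaling first and with median scaling second. For null against WT they were 0.20 and 0.25 for Pnpla2 (-0.16 as reported) and 0.011 and 0.072 for Plin2 (-0.31) at GV, and 0.10 and 0.10 for Dgat2 (-0.17) and 0.22 and 0.22 for Abhd5 (-0.05) in growing oocytes. For WT MII against GV they were 0.081 and 0.44 for Pnpla3 (-1.65), 0.48 and 0.82 for Nceh1 (-1.21) and 0.18 and 0.48 for Plin3 (-1.24). For WT GV against growing they were 0.025 and 0.0096 for Abhd5 (-0.34). The maturation interactions were -0.43 and -0.51 for Nceh1 (0.36), -0.28 and -0.30 for Plin2 (0.25) and -0.30 and -0.35 for Soat1 (0.53).

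With 1 library left out at a time, 2 to 3 members were lower in growing oocytes, 2 to 5 lower at GV (2 without WT GV replicate 1, 5 without Zar1/2-null GV replicate 2), 2 to 3 higher at MII and 0 to 1 lower at MII (0 without WT MII replicate 2 or either Zar1/2-null MII library). From growing to GV in WT 4 to 6 fell, and from GV to MII 7 did. A maturation interaction was called for 2 to 5 (5 without Zar1/2-null GV replicate 2) and a growth interaction for 0 to 1. An arm left with 1 library is assumed to vary like the others. The differences whose sign turned passed no threshold as reported, and ran from -0.086 to 0.52 for Dgat1, -0.39 to 0.044 for Dgat2 and -0.22 to 0.12 for Abhd5 in growing oocytes, from -0.024 to 0.10 for Abhd5 at GV, and from -0.12 to 0.28 for Plin3 and -0.085 to 0.26 for Abhd5 in the growth interaction.

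Pairing by replicate number was not established, since the labels name no pairs. Over genes, the differences between replicates correlated between genotypes at r = 0.163 in growing, -0.117 in GV and 0.0872 in MII oocytes. Such a correlation cannot show a shift common to all genes of a library, and same-numbered libraries share the WT growing library as their ERCC reference. With a replicate block 1 member was higher in growing oocytes (Pnpla2, limma adjusted p = 0.037), 4 were lower at GV and 6 fell from growing to GV in WT, and the counts of the other comparisons did not change. With crossed pairs at GV, an alternative added after seeing the data, 3 members were lower and 0 higher. Depth per gene is unknown, so values under 1 FPKM, such as those of Dgat1, Plin2 and Pnpla2 at MII, carry a counting error that could not be given.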
